A study of Mus musculus with 6 samples.

Results

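The receptors for the cytokines that share the common gamma chain, together with the stem cell factor receptor Kit, were followed across 3 subsets of mouse intraepithelial lymphocytes (IEL), T cells found between the epithelial cells of the small intestine. The members were every probe set whose platform gene symbol was Il7r, Il2ra, Il2rb, Il2rg or Kit. Of these 5 genes, 4 were found, each with 1 probe set, out of 12422 probe sets that are not array controls and 8251 genes named by a single symbol. They were Il7r (probe set 99030_at), Il2ra (101917_at), Il2rb (100764_at) and Kit (99956_at). Il2rg, the common gamma chain itself, had no probe set under its symbol and was not analysed here.

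The subsets differ in T cell receptor and in the form of CD8. They were TCRab CD8aa, TCRgd CD8aa and TCRab CD8ab, each taken freshly and without treatment from the small intestine of C57BL/6 mice younger than 8 weeks. In each of 2 experiments, held on separate occasions, the IEL of 20 mice were pooled and all 3 subsets were sorted from that pool, so that each subset was measured on 2 Affymetrix arrays. A value is therefore the average of a pool, and the spread between the 2 arrays of a subset is that between pools and occasions and not that between mice. The array titles write TCRgb for the subset that the source descriptions call TCRgd CD8aa, and the source name is used.

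Interleukin 7 acts through a receptor made of the Il7r chain and the common gamma chain. Interleukins 2 and 15 act through the Il2rb chain and the common gamma chain, joined by Il2ra for interleukin 2 and by Il15ra for interleukin 15. These receptors have no enzyme of their own and signal through the kinases Jak1 and Jak3 to the transcription factor Stat5, which supports survival and growth of lymphocytes. Naive and memory T cells depend on interleukin 7, and interleukin 15 is known for its part in maintaining IEL with the CD8aa form. Kit is of another family, a receptor tyrosine kinase that binds stem cell factor, and is known from blood stem cells, mast cells and melanocytes.

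Before the levels, the RefSeq promoter windows (build GRCm38.p6) of the members with the clearest differences between subsets, Il7r and Kit, are shown to let their sequence be compared. Each runs 5′ to 3′ on the gene's strand and ends at the base before the outermost annotated start of the gene, with any match to the motifs below in capitals.
Il7r: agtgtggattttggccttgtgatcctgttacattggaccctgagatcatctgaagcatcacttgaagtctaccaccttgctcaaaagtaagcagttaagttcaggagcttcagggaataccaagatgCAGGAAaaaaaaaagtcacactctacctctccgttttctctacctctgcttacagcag
Kit: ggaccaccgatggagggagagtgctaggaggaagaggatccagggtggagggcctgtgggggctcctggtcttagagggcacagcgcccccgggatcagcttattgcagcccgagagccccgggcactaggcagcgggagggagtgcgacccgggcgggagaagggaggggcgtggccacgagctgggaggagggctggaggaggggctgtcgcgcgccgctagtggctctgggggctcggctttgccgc

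The Il7r window is chr15:9529942-9530126 on the minus strand and the Kit window is chr5:75574737-75574986 on the plus strand. The windows were unlike in base composition. G and C made up 43.8% of the 185 bases for Il7r and 70.8% of the 250 bases for Kit, against a median of 51.4% and 52.4% over 32851 promoter windows of those lengths. Kit had 17 CpG pairs and Il7r 1, against a median of 6 and 4. On both strands, 4 motifs of factors that act on lymphocyte genes were sought, CAGGAA for the ETS family, TGTGGT for RUNX, GATAA for GATA and GTAAACA for FOXO. Of these 4 strings only CAGGAA was found, once in the Il7r window, and shorter forms of the motifs were not sought. CAGGAA occurs in 19.6% of windows of that length, TGTGGT in 10.7%, GATAA in 18.3% and GTAAACA in 2.41%. At the length of the Kit window the shares are 25.7% for CAGGAA, 14% for TGTGGT, 22.6% for GATAA and 3.17% for GTAAACA. A match is a description of these letters and not of binding.

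The values are MAS5 signals, in linear units after scaling of each array by the authors. Median signals per array ran from 83.5 to 113. For beta-actin, the signal at the 3′ end over that at the 5′ end, a quality measure that rises when RNA is broken or incompletely copied, lay between 1.41 and 1.76 in experiment 1 and between 40.4 and 52.2 in experiment 2. Cd8a, the CD8 chain that all subsets carry, was bright on every array, and Cd8b1, the chain particular to CD8ab, had 17646.6 and 27591.7 in TCRab CD8ab in experiments 1 and 2. Cd8b1 was at 29.5 and 182.1 in TCRab CD8aa and at 28.1 and 763.1 in TCRgd CD8aa. The TCRgd CD8aa array of experiment 2 stood apart from the others in its markers of other cells. There the 11 measured enterocyte markers summed to 20218.1 and the 6 of B and plasma cells to 5262.4, while the other 5 arrays ran from 990.5 to 2428.6 and from 772.8 to 1384.7. The enterocyte rise was in Fabp1, Fabp2, Vil1, Krt8, Krt19, Apoa1, Apoa4 and Lct. Epcam, at 693.9, and Krt18, at 91.4, were near their highest elsewhere, 617 and 91.1. Cdh1, at 209, was under its 267.8 in TCRab CD8aa and 267.1 in TCRab CD8ab of experiment 2. Most of the B and plasma cell sum was Jchain, at 4023.1. Cd79b and Cd22 were also at their highest there, at 744.2 and 79.7. Cd79a, Ms4a1 and Blk, at 69.6, 296.8 and 49, were under their TCRab CD8ab values of experiment 2, 206, 406.9 and 138.5. The comparisons of TCRgd CD8aa with TCRab CD8ab that are named below are given with that array and, in the member paragraphs or once for the pathway genes, without it.

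Il7r, the chain that gives the interleukin 7 receptor its specificity, separated the subsets by more than any other member. TCRab CD8aa had signals of 57.8 and 91.4 in experiments 1 and 2. TCRgd CD8aa had 112.1 and 1016.5, and TCRab CD8ab had 2863.8 and 1279.8. TCRab CD8ab was the highest and TCRab CD8aa the lowest in both experiments, and the arrays of the 3 subsets did not overlap. In sorted cells measured in bulk, fewer cells with the transcript and less transcript per cell cannot be told apart. The mean log2 signal was 6.18 ± 0.47 in TCRab CD8aa, 8.40 ± 2.25 in TCRgd CD8aa and 10.90 ± 0.82 in TCRab CD8ab (SD, n = 2 each).

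**Figure D1:**
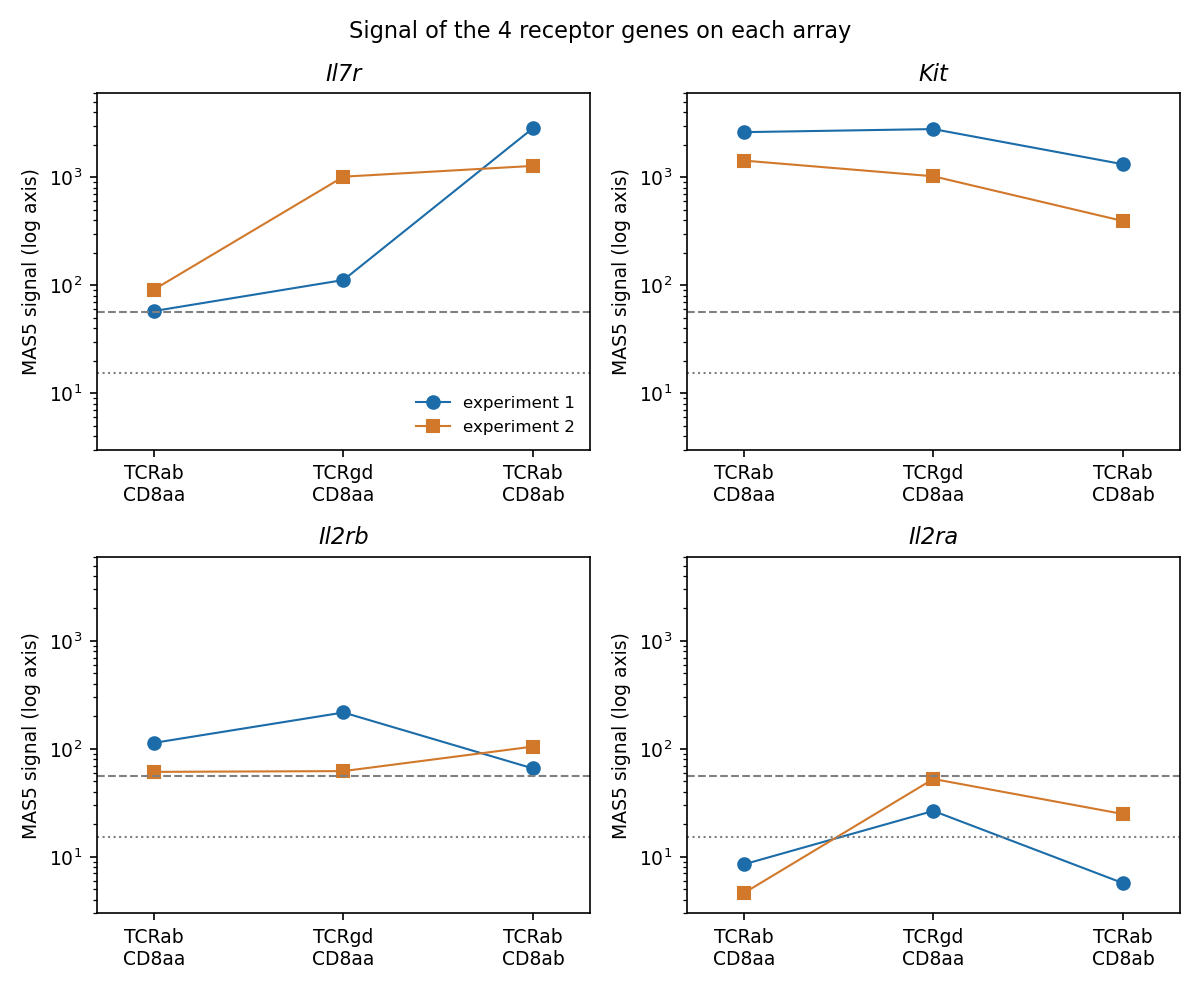
MAS5 signal (log axis) of Il7r, Kit, Il2rb and Il2ra on each of the 6 arrays, 1 point per array, with circles for experiment 1 and squares for experiment 2 and lines joining arrays sorted from the same pool. The dotted line is the floor at 15.3 and the dashed line the level of 56.4 used to filter dim probe sets. In both experiments Il7r is highest and Kit lowest in TCRab CD8ab, Il2rb changes its order, and Il2ra stays under the dashed line on all 6 arrays.

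Between TCRab CD8aa and TCRab CD8ab, the log2 difference of Il7r was −5.63 in experiment 1 and −3.81 in experiment 2, so that TCRab CD8aa had 2.02% and 7.14% of the TCRab CD8ab signal. Arrays without overlap in this direction were seen for 12.8% of tested probe sets. The mean difference was −4.72, with a standard error of 1.07 in limma without a term for the experiment (adjusted p = 0.772, unadjusted p = 0.00385). With the experiment as a block the standard error was 0.80, the 95% interval ran from −6.52 to −2.92 and the adjusted p was 0.0321. That call was lost without TCRab CD8aa replicate 1 (−4.89, adjusted p = 0.050, just above the threshold), TCRab CD8aa replicate 2 (−4.55, adjusted p = 0.0685) or TCRab CD8ab replicate 1 (−3.18, adjusted p = 0.0597), as well as without the intensity trend (0.247) or the filter on dim probe sets (0.622).

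TCRgd CD8aa gave 2 unlike values for Il7r. Its signal was 3.91% of that of TCRab CD8ab in experiment 1 and 79.4% in experiment 2, or log2 −4.68 and −0.33. The TCRgd CD8aa arrays were both below those of TCRab CD8ab, as for 10.4% of tested probe sets. The mean difference of −2.50 had a 95% interval from −4.31 to −0.70 with the block and did not pass (limma adjusted p = 0.375 with the block, adjusted p = 1.00 without it). Leaving out TCRgd CD8aa replicate 2, which carried the raised markers of other cells, gave −4.22 (adjusted p = 1.59e-07 with the block). Without TCRgd CD8aa replicate 1 it was −0.79 (adjusted p = 0.763). In these fits with 1 array of TCRgd CD8aa, limma gave every probe set the variance of the intensity trend, so the small p-value does not measure the spread of Il7r.

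The markers of the same arrays were set beside these values. On the TCRgd CD8aa array of experiment 2, Cd8b1 was 2.77% of the TCRab CD8ab signal of that experiment, against 79.4% for Il7r. In experiment 1 the same subset had 0.159% for Cd8b1 and 3.91% for Il7r. Among 5 measured markers of group 3 innate lymphoid cells, gut lymphocytes that also use Il7r, the summed signal of that array was 215.1, the lowest of the 6, which was set by Ltb at 34.4, against 702.8 in TCRab CD8ab of experiment 2. Il17a and Il1r1 were at their highest of experiment 2 there, with 53.3 and 38.7, against 43.6 and 11.8 in TCRab CD8ab. Both lay under the filter level of 56.4 on that array. Lta was at its lowest of experiment 2 there, with 81.4, against 116.1 in TCRab CD8aa and 97.3 in TCRab CD8ab. Ncr1 was under the floor of 15.3 there, at 7.3. The part of TCRab CD8ab, enterocyte, B cell, plasma cell or innate lymphoid cell RNA in the Il7r signal of that array was not tested.

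Between the CD8aa subsets, Il7r was higher in TCRgd CD8aa than in TCRab CD8aa in both experiments, by log2 0.96 and 3.48, without overlap, as were 7.78% of tested probe sets. The mean difference of 2.22 had a 95% interval from 0.41 to 4.02 with the block, but it did not pass over all probe sets in limma (adjusted p = 1.00 with and without the block). It was 3.93 without TCRgd CD8aa replicate 1 (adjusted p = 2.51e-08) and 0.50 without TCRgd CD8aa replicate 2 (adjusted p = 1.00), both with the block and with the variance set by the trend. In the order of Il7r levels, the differences between neighbours thus had blocked intervals that leave out 0 but did not pass the adjustment over all probe sets, and both rest on which TCRgd CD8aa array is used.

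Il2rb, the chain shared by the receptors for interleukins 2 and 15, was dim on all 6 arrays and had no stable order. TCRab CD8aa had 113.6 and 61.2, TCRgd CD8aa had 217.3 and 62.2, and TCRab CD8ab had 65.8 and 105 in experiments 1 and 2. In experiment 1 both CD8aa subsets were above TCRab CD8ab, and in experiment 2 both were below it. The log2 differences from TCRab CD8ab were 0.79 and −0.78 for TCRab CD8aa and 1.72 and −0.76 for TCRgd CD8aa. Their means were 0.0046, with a 95% interval from −1.48 to 1.49 in the blocked fit, and 0.48, with an interval from −1.01 to 1.97 (limma adjusted p = 0.999 and 0.879). Between the CD8aa subsets the mean was 0.48, with an interval from −1.01 to 1.97 (adjusted p = 1.00). Without TCRgd CD8aa replicate 2 the means with the block were 1.33 against TCRab CD8ab and 1.33 against TCRab CD8aa, and neither passed (adjusted p = 1.00 for both). The intervals on all arrays include changes of more than log2 1 in either direction, so likeness of the subsets in Il2rb was not shown.

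Il2ra, the chain that raises the affinity of the receptor for interleukin 2 and marks activated and regulatory T cells, stayed under the filter level of 56.4 on every array and was not tested. Its signals were 8.5 and 4.6 in TCRab CD8aa, 26.6 and 52.6 in TCRgd CD8aa and 5.7 and 24.9 in TCRab CD8ab. Of the 6 values, 3 lay under the floor of 15.3, including both of TCRab CD8aa. TCRgd CD8aa was the highest in both experiments, at a level where no fold change is given.

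Kit was bright in all 3 subsets and higher in both CD8aa subsets than in TCRab CD8ab within each experiment. TCRab CD8aa had signals of 2630.1 and 1433.8 in experiments 1 and 2, TCRgd CD8aa had 2808.1 and 1025.8, and TCRab CD8ab had 1326.2 and 395. All 3 subsets were lower in experiment 2 than in experiment 1, with log2 differences of −0.88 in TCRab CD8aa, −1.45 in TCRgd CD8aa and −1.75 in TCRab CD8ab. The TCRgd CD8aa array of experiment 2 thus lay under the TCRab CD8ab array of experiment 1, and these groups overlap unless the arrays are compared within a pool. The arrays of TCRab CD8aa were both above those of TCRab CD8ab, as were those of 10% of tested probe sets. The fall in experiment 2 was not particular to Kit. Cd8a fell from log2 14.09 to 12.95 in TCRab CD8aa, 14.02 to 12.88 in TCRgd CD8aa and 13.99 to 12.69 in TCRab CD8ab. Cd3e, Cd3d, Cd3g and Cd247 fell in all 3 subsets too, while Cd8b1 rose in all 3 and Cd4 went both ways. The beta-actin ratios of experiment 2 were 40.4 to 52.2, and their part in the fall was not tested.

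For TCRab CD8aa against TCRab CD8ab, Kit differed by log2 0.99 in experiment 1 and 1.86 in experiment 2. The mean of 1.42 ± 0.32 (SE of the blocked fit, n = 2 each) is 2.68-fold, with a 95% interval from 0.70 to 2.15 on the log2 scale. Over all probe sets it did not pass (limma adjusted p = 0.113 with the block, adjusted p = 1.00 without it). With the block it fell under the threshold on the 4 arrays of these subsets alone (adjusted p = 0.0284). It also fell under the threshold without TCRgd CD8aa replicate 1 (1.42, adjusted p = 0.0262) or replicate 2 (1.42, adjusted p = 0.0210). In these 3 fits limma gave every probe set the variance of the trend, so the p-values do not measure the spread of Kit. Of the other arrays, it passed without TCRab CD8ab replicate 1 (1.72, adjusted p = 0.0399). It did not pass without TCRab CD8ab replicate 2 (1.13, adjusted p = 0.30), TCRab CD8aa replicate 1 (1.79, adjusted p = 0.245) or TCRab CD8aa replicate 2 (1.06, adjusted p = 1.00).

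For TCRgd CD8aa against TCRab CD8ab, which shares the TCRab CD8ab arrays with the comparison above, Kit differed by log2 1.08 and 1.38. The mean of 1.23 ± 0.32 had a 95% interval from 0.50 to 1.95 (limma adjusted p = 0.225 with the block, adjusted p = 1.00 without it). Without TCRgd CD8aa replicate 2 it was 1.30 with the block (adjusted p = 0.708). Between the CD8aa subsets the differences were 0.09 and −0.48, with a mean of −0.19 and a 95% interval from −0.92 to 0.53 (adjusted p = 1.00). That interval holds changes of up to 0.92 downward, so the 2 subsets were not told apart in Kit.

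Kit is also a marker of mast cells, which lie in the gut wall and among the epithelium. The 11 measured mast cell markers summed to 608.8 and 345.1 in TCRab CD8aa, 479.3 and 976.7 in TCRgd CD8aa, and 419.7 and 468.4 in TCRab CD8ab. Between TCRab CD8aa and TCRab CD8ab the sum was higher in experiment 1, where Kit was 1.98-fold higher, and lower in experiment 2, where Kit was 3.63-fold higher. Of these markers, 2 lay at the floor in TCRab CD8aa and 5 in TCRab CD8ab in experiment 1, and 6 and 4 in the same subsets in experiment 2. Cpa3, a protease of mast cell granules, was at 53.5 and 2.5 in TCRab CD8aa, 10.7 and 28.3 in TCRgd CD8aa, and 9.8 and 32.6 in TCRab CD8ab. Fcer1a, the chain of the IgE receptor that binds IgE, reached 76.2 on the TCRgd CD8aa array of experiment 2 and was at most 27.9 elsewhere. On that array Mcpt1 and Mcpt2, proteases of mucosal mast cells, were at 331.8 and 245.1. Ms4a2 was also at its highest there, at 67.1, but others of the list were not raised. Tpsb2 was at its lowest there, with 65.8, against 128.8 to 196.8 elsewhere. Cma1 was at 28.2, against 85.5 in TCRgd CD8aa of experiment 1. Mcpt4 and Tpsab1 were under the floor there, at 4.3 and 4.7. The part of mast cells in the Kit signal of any array was not tested.

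**Figure D2:**
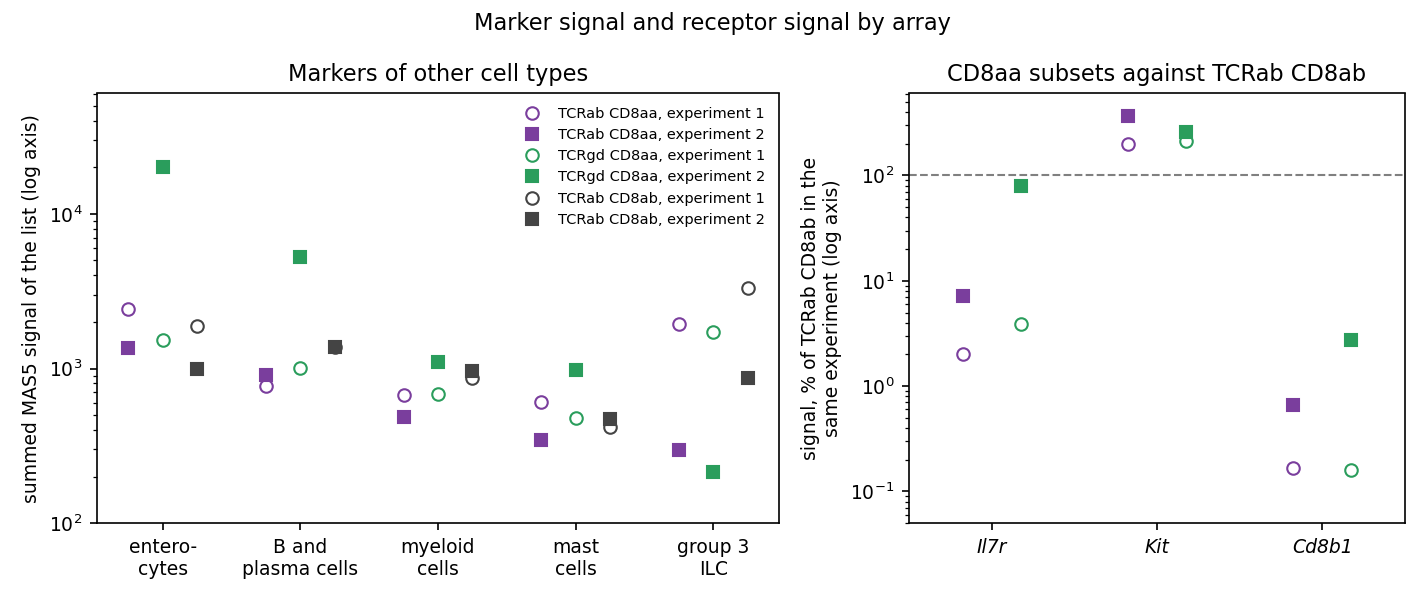
Left, summed MAS5 signal (log axis) of the measured markers of 5 other cell types on each array, with colours for subsets, open circles for experiment 1 and squares for experiment 2. Right, signal of Il7r, Kit and Cd8b1 in the CD8aa subsets as a percentage of TCRab CD8ab in the same experiment (log axis, dashed line at equality), where the TCRgd CD8aa array of experiment 2 is at 79.4% for Il7r and 2.77% for Cd8b1.

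Counted over the members, limma without the block called 0 of the 3 tested genes in each comparison, as it called 0.0% of all 8299 tested probe sets. At an unadjusted p under 0.05 it had 1 member, Il7r, in TCRab CD8aa against TCRab CD8ab, beside 187 probe sets or 2.25%. In the other comparisons it had 0 members at that level, beside 2.02% in TCRgd CD8aa against TCRab CD8ab and 0.41% in TCRgd CD8aa against TCRab CD8aa. With the block, 1 of 3 was called in TCRab CD8aa against TCRab CD8ab, Il7r as lower, against a background of 0.819% of probe sets called in either direction and 0.301% called lower. In TCRgd CD8aa against TCRab CD8ab it was 0 of 3, beside 0.554%, and in TCRgd CD8aa against TCRab CD8aa 0 of 3, beside 0.0241%. At an unadjusted p under 0.05 the block gave Il7r and Kit in TCRab CD8aa against TCRab CD8ab, beside 10.1% of probe sets, and the same 2 genes in TCRgd CD8aa against TCRab CD8ab, beside 8.21%. Between the CD8aa subsets it gave Il7r, beside 2.07%. All 3 tested genes passed the filter on every array, so none was admitted through its brighter subset.

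**Figure D3:**
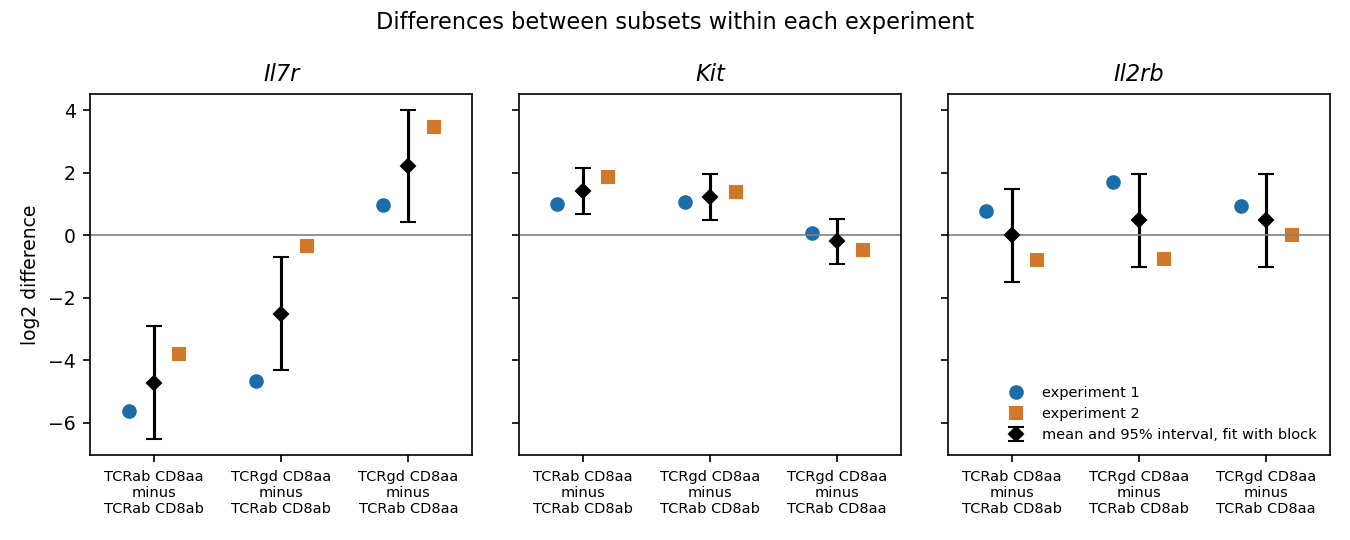
Log2 differences between subsets for Il7r, Kit and Il2rb, with 1 circle for experiment 1, 1 square for experiment 2, and a diamond with its 95% interval for the mean in limma with the experiment as a block. Il7r lies at −5.63 and −3.81 and Kit at 0.99 and 1.86 for TCRab CD8aa minus TCRab CD8ab, while the points of Il2rb fall on both sides of 0.

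Of the other genes of these pathways, 7 lists named 77 genes by role, of which 63 had a probe set and 51 were tested, each by its brightest probe set. With the block, 1 of the 51 was called lower and 0 higher in TCRab CD8aa against TCRab CD8ab, beside 0.819% of all probe sets in either direction, and likewise 1 lower and 0 higher in TCRgd CD8aa against TCRab CD8ab, beside 0.554%. Both calls were Klf2, a factor of circulating T cells, which passed the filter only through its TCRab CD8ab arrays. Between the CD8aa subsets 0 were called, and without the block 0 in any comparison. At unadjusted p under 0.05 there were 11, 6 and 2 of the 51 with the block and 2, 1 and 0 without it, in the order of comparisons given, beside 10.1%, 8.21% and 2.07% of all probe sets with the block and 2.25%, 2.02% and 0.41% without it. The median log2 differences of the 51 were −0.07, −0.09 and 0.01, against −0.08, −0.06 and 0.0015 over all tested probe sets.

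The ligands were mostly not measurable in these cells. Of 6 with a probe set, Il2, Il4, Il7 and Il15 stayed under 56.4 on all arrays, with a highest signal of 40.9 for Il7, and were not tested. Kitl, which encodes stem cell factor, reached 231.2 on the TCRgd CD8aa array of experiment 2, the one with raised enterocyte markers, and was at most 25.8 on the others. Il9, a growth factor for mast cells and T cells, was at 14.7 and 27.8 in TCRab CD8aa, 48.9 and 108.8 in TCRgd CD8aa, and 60.7 and 91.7 in TCRab CD8ab. Its difference of −1.85 in TCRab CD8aa against TCRab CD8ab did not pass (limma with the block, adjusted p = 0.422), and 1 of its arrays lay at the floor.

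Among the receptor chains that share a partner or a ligand with the members, 2 of 4 were tested and 0 were called. Il15ra, which holds interleukin 15 for the Il2rb chain, had 391.4 and 307 in TCRab CD8aa, 469.3 and 323 in TCRgd CD8aa, and 321.6 and 280.8 in TCRab CD8ab. In both experiments TCRgd CD8aa was the highest and TCRab CD8ab the lowest, by differences between subsets of at most log2 0.55. Il4ra, a chain of the interleukin 4 receptor, had 1517.6 and 209.4 in TCRab CD8aa, 1706.7 and 234.4 in TCRgd CD8aa, and 2354 and 436.3 in TCRab CD8ab. Against TCRab CD8ab its log2 difference was −0.85 for TCRab CD8aa and −0.68 for TCRgd CD8aa, and neither passed (limma with the block, adjusted p = 0.426 and 0.635). A dimmer Il4ra probe set gave 0.06 and 0.16. Il9r and Il13ra1 were not tested.

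Of the 9 kinases and transcription factors of the JAK and STAT families, 0 were called in any comparison. In TCRab CD8aa against TCRab CD8ab their median was log2 −0.34. Stat5a, a transcription factor that these receptors switch on, had 786.8 and 1312.1 in TCRab CD8aa, 808 and 1733 in TCRgd CD8aa, and 1026.6 and 3349.2 in TCRab CD8ab for its brightest probe set. Its mean difference was −0.87 ± 0.33 in TCRab CD8aa against TCRab CD8ab, and a further probe set gave −0.89. Stat5b, its close relative, had −1.37 ± 0.57, with −0.48 in experiment 1 and −2.26 in experiment 2. The adjusted p-values of limma with the block were 0.429 for Stat5a and 0.469 for Stat5b. Stat3 had signals of 4236.3 and 748.2 in TCRab CD8aa and 1981.2 and 749.6 in TCRab CD8ab, apart in experiment 1 alone.

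The inhibitors of cytokine receptor signalling, 10 tested, had a median of log2 0.12 in TCRab CD8aa against TCRab CD8ab and 0.13 in TCRgd CD8aa against TCRab CD8ab. Cish, an inhibitor that Stat5 itself induces, had 412.1 and 110.2 in TCRab CD8aa, 565 and 176.5 in TCRgd CD8aa, and 760.7 and 483.9 in TCRab CD8ab. The order of the subsets was the same in both experiments. The differences of −1.51 ± 0.41 and −0.94 ± 0.41 from TCRab CD8ab did not pass (SE, n = 2; limma with the block, adjusted p = 0.210 and 0.592). Socs2, a relative of Cish, had its highest values in TCRgd CD8aa, 705.9 and 632.8, with 450 and 415.4 in TCRab CD8aa and 251.1 and 404.1 in TCRab CD8ab, and did not pass either. Ptpn6, the phosphatase SHP-1, had 0.62 ± 0.35 in TCRab CD8aa against TCRab CD8ab (adjusted p = 0.602).

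The signal adaptors of Kit and other growth factor receptors, with 9 of 13 measured genes tested, had a median difference from TCRab CD8ab of −0.03 for TCRab CD8aa and 0.04 for TCRgd CD8aa, and 0 were called. Sos1, which activates Ras, was lower in TCRab CD8aa than in TCRab CD8ab by −0.65 and −0.67 in the 2 experiments. Pik3r1, the regulatory subunit of phosphoinositide 3-kinase, was higher by 0.58 and 0.48. The mean for Grb2, the adaptor that binds Sos1, was 0.09. None of these passed, with adjusted p-values of 0.60, 0.611 and 0.959 in limma with the block.

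Among 10 targets in survival and growth, 0 passed, and the median in TCRab CD8aa against TCRab CD8ab was log2 0.39. Bcl2, which protects from cell death and is raised by interleukin 7, had 4036.5 and 4357.7 in TCRab CD8aa, 2239.5 and 3836.9 in TCRgd CD8aa, and 1717.3 and 2908.2 in TCRab CD8ab. TCRab CD8aa, the subset with the lowest Il7r, was thus the highest for this Bcl2 probe set in both experiments. Its difference from TCRab CD8ab was 0.91 ± 0.30 (adjusted p = 0.360), and the other 2 probe sets gave 0.87 and 1.07. Ccnd2, a cyclin of the early cell cycle, had 1.03 ± 0.28 (adjusted p = 0.219), with 1.03 and 1.02 in the 2 experiments. Bcl2l11, the cell death protein Bim, had 1.02 ± 0.31 (adjusted p = 0.295), but its 2 dimmer probe sets gave −0.41 and 0.29.

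**Figure D4:**
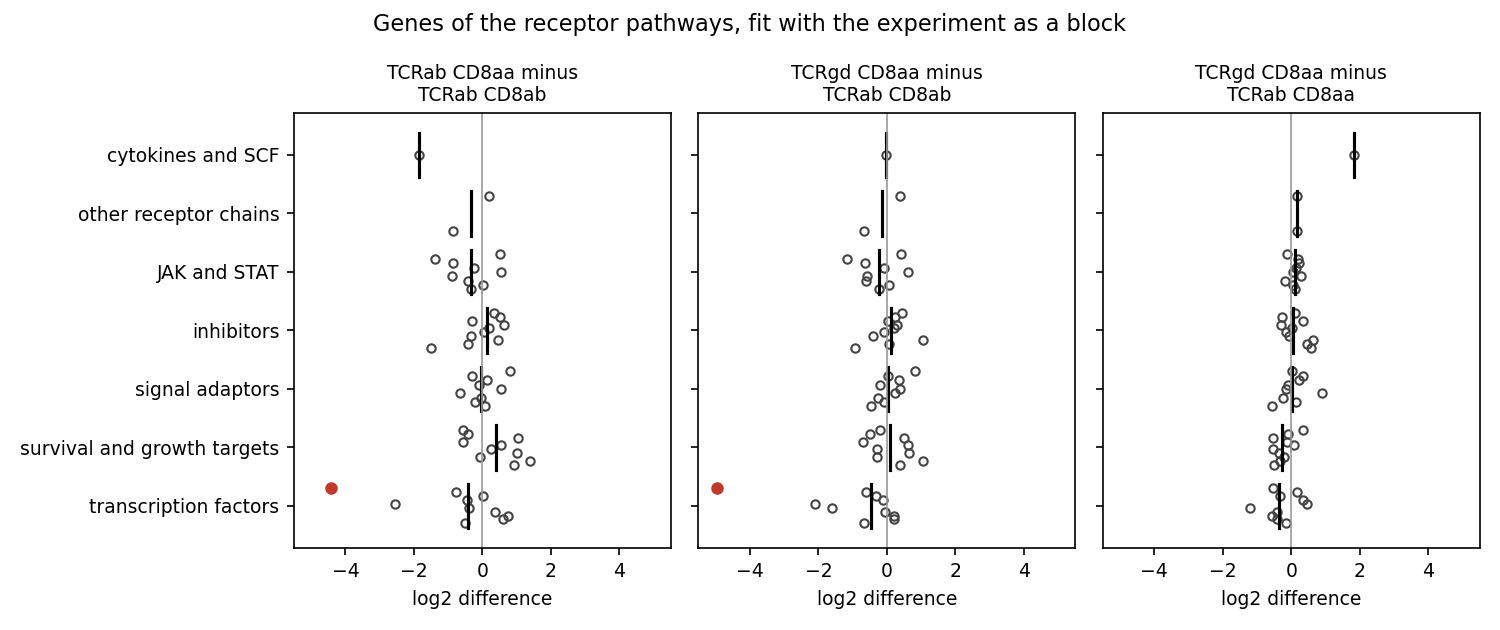
Log2 differences in limma with the experiment as a block for the 51 tested genes of 7 pathway lists, 1 point per gene and 1 panel per comparison, with a bar at the median of each list. Filled red points passed an adjusted p under 0.05, and both are Klf2, in the comparisons with TCRab CD8ab.

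Of the 10 tested transcription factors that act on Il7r, Il2rb or Kit, Klf2 had signals of 36.3 and 11.6 in TCRab CD8aa, 17.1 and 12.8 in TCRgd CD8aa, and 1037.6 and 245.8 in TCRab CD8ab. Its fitted differences from TCRab CD8ab were −4.42 ± 0.70 and −4.96 ± 0.70, with 1 array of each CD8aa subset set to the floor. They passed in limma with the block (adjusted p = 0.0249 and 0.0168). Klf2 exceeded the filter level on the 2 TCRab CD8ab arrays alone, so it was admitted to the test only through the subset where it is high. Unlike Il7r, Klf2 was dim on the TCRgd CD8aa array of experiment 2. Eomes, a factor of memory and killer T cells that acts on Il2rb, had −2.55 ± 0.88 and −2.10 ± 0.88 and did not pass, with 1 array at the floor. A further probe set, above the filter level only in TCRab CD8ab, gave −2.21 and −2.42. Runx1 had −0.39 ± 0.65 in TCRab CD8aa and −1.61 ± 0.65 in TCRgd CD8aa, where its TCRgd CD8aa signal in experiment 2 was 37.6.

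Without TCRgd CD8aa replicate 2, the blocked difference of TCRgd CD8aa from TCRab CD8ab was −5.72 for Klf2 (limma adjusted p = 7.09e-07, with the variance set by the trend). It was −3.45 for Eomes, −0.39 for Runx1, −0.74 for Cish, 1.29 for Socs2, −0.57 for Il4ra and 0.51 for Il15ra. None of these 6 passed, and the value of Runx1 was the one that moved furthest toward 0.

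The genes whose pattern was most like that of a member were sought over the 6 arrays, with the mean of each experiment taken out, among 3177 probe sets that had 1 symbol, no array at the floor and a range of at least log2 1. Pearson's r is given as a description over 6 arrays that share pools. For Il7r they were Cd83 (r = 0.996), Adck1 (0.991) and Plk1 (0.986). Cd83, a surface molecule of activated lymphocytes and dendritic cells, differed from TCRab CD8ab by −2.13 and −1.46 for TCRab CD8aa and by −1.59 and −0.02 for TCRgd CD8aa. Cd83 also came near TCRab CD8ab on the TCRgd CD8aa array of experiment 2, which follows from its choice by likeness to Il7r.

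For Kit they were Wls (0.997), Tbc1d24 (0.995) and Klrb1a (0.994). Klrb1a, a lectin receptor of natural killer cells, differed from TCRab CD8ab by 3.50 and 5.13 for TCRab CD8aa and by 3.50 and 3.71 for TCRgd CD8aa. Wls, which carries Wnt proteins to the cell surface, had 0.95 and 1.68, and 1.01 and 1.38, in the same comparisons. For Il2rb they were Ckmt1 (0.990), Prf1 (0.989) and Nog (0.982). Prf1 encodes perforin, the pore protein of killer cells. It had 0.71 and −0.69 in TCRab CD8aa against TCRab CD8ab, a change of sign that follows from its choice by likeness to Il2rb.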

How the data were processed

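RNA of sorted IEL was hybridised to Affymetrix arrays. The deposited values are 1 linear signal intensity for each probe set on each array, from MAS5 per the submitters' processing notes. The version, detection calls and probe positions are not given in the sources used here. Each array was scaled further to a common trimmed mean (2% left out at each end, factors 0.999915 to 1.00006), values under the 20th percentile (15.3) were raised to that floor before taking log2. Of 12488 probe sets, 66 were controls, 10833 of the others had 1 symbol in the platform annotation, 396 several and 1193 none. Probe sets were tested where at least 2 arrays exceeded the 40th percentile (56.4), which left 8299.

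The model for all comparisons used the 6 arrays together, an intensity trend and limma 3.58.1 (R 4.3.3), at a Benjamini-Hochberg adjusted p under 0.05. The planned design had no term for the experiment. A second fit took the experiment as a block. The replicate numbers of the titles, which mark the experiment and its pool, pair the arrays: deviations from subset means correlated at 0.618, 0.713 and 0.603 between subsets. Without the block, p-values measure the spread between the 2 arrays of a subset, which differ in pool and occasion. With the block, they measure how far the differences between subsets vary from one experiment to the other. The fits with the variance set by the trend are the exception. With 2 arrays per subset, precision is limited. Standard errors are moderated and pooled over subsets.

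Members and gene lists were chosen with earlier results of these data known. All member probe sets are given. Of each list, called genes and the 3 with the smallest blocked p are named, and for each tested member the 3 genes of highest r. Promoters came from RefSeq tables. Alternatives concerned scaling, floor, filter, trend, arrays used, threshold, the block and leaving out each array.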

Additional observations from a re-analysis of the deposited data

How the results depend on the processing

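Each comparison was recomputed under 32 other settings, 16 of them without the experiment as a replicate block and 16 with it. Without the block, 0 members were called in any comparison and setting, leave-one-out included. With the block, TCRab CD8aa against TCRab CD8ab had 1 member called (Il7r) in the fit itself, with quantile normalization, the floor moved to the 10th or 30th percentile, an added constant of 16, a filter at the 60th percentile or adjusted p under 0.10. It had 2 (Il7r and Kit) on the 4 arrays of these subsets, 0 without the filter or the trend, and 0 to 2 with an array left out. TCRgd CD8aa against TCRab CD8ab and TCRgd CD8aa against TCRab CD8aa each had 0 to 1 with an array left out, and 0 otherwise. Where a subset was left with 1 array, that array was taken to vary like the others. Over all probe sets the blocked counts of 68, 46 and 2 ran from 22 to 198, 33 to 192 and 1 to 112 with an array left out. They were 0, 0 and 0 without the filter and 6, 3 and 1 without the trend. On the arrays of the compared subsets the first was 169, at adjusted p under 0.10 it was 109, and with quantile normalization the last was 1.

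Il7r kept its direction in all 3 comparisons under all settings, ranging from −6.26 to −3.18, −4.22 to −0.79 and 0.50 to 3.93 in the order above. Kit kept its direction against TCRab CD8ab, from 0.55 to 2.3 and from 0.36 to 2.10. Between the CD8aa subsets Kit turned to 0.24 without TCRab CD8aa replicate 1, 0.53 without TCRgd CD8aa replicate 2 and, with the replicate block, 0.17 without TCRab CD8aa replicate 2. Its leave-one-out range there was −0.92 to 0.53. The filter at the 60th percentile removed Il2rb. It turned in each comparison with an array left out, ranging without the block from −0.44 to 0.45, −0.42 to 1.39 and −0.42 to 1.38. In TCRab CD8aa against TCRab CD8ab it had −0.44 and −0.33 without replicate 1 of either subset, and −0.16 and −1.01 with the block as well. In TCRgd CD8aa against TCRab CD8ab it had −0.42 without TCRgd CD8aa replicate 1 and, with the block, −0.36 without that array and −0.53 without TCRab CD8ab replicate 1. In TCRgd CD8aa against TCRab CD8aa it had −0.42, and −0.37 with the block, without TCRgd CD8aa replicate 1. With 1 value per subset and experiment for each gene, low signals such as those of Il2rb and Il2ra limit what can be told apart. The cause of these turns was not tested.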
